A study of Mus musculus with 18 samples.

Results

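The 47 genes described here build the kinetochore and run the spindle checkpoint, and were chosen by name, as the rows of the count table whose mouse Ensembl identifier maps to each listed symbol. All 47 were found among 50689 features. RNA was sequenced from proliferating satellite cells (the resident stem cells of muscle fibres) of C57BL6 mice, taken from the tibialis anterior and cultured on matrigel. There were 9 scKO libraries, of genotype Pax7-CreERT2/+;Hoxa10f/f, whose cells were given 4-hydroxytamoxifen at 1 µM for 2 days, and 9 control libraries, of genotype Hoxa10f/f. Both groups carry Hoxa10 alleles flanked by Cre target sites, and only the scKO group carries the tamoxifen-inducible Cre driven by Pax7, a transcription factor of satellite cells. No 4-hydroxytamoxifen is stated for the controls, so genotype, Cre and drug cannot be told apart. Neither the age of the mice nor whether libraries came from separate animals or cultures is given, so p-values measure only the spread between these libraries.

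The kinetochore is the protein assembly that joins a centromere to spindle microtubules during mitosis. Its inner layer sits on nucleosomes that hold the histone variant Cenpa, and its outer layer, formed by the KNL1, MIS12 and NDC80 complexes, binds the microtubule. Kinetochores without microtubules recruit checkpoint proteins that hold back the anaphase-promoting complex, and the chromosomal passenger complex releases faulty attachments. Transcripts of many of these genes are known to peak in the G2 and M phases. In bulk RNA, fewer cells in mitosis and less transcript per cell cannot be told apart.

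The libraries fell into 2 depth classes. Deep libraries (scKO 6, 7 and 9; control 1 and 2) held over 2000000 counts of unique molecular identifiers (UMIs) each, and shallow ones (6 scKO, 7 control) 613915 to 968559 in scKO and 420197 to 917166 in control. Among the shallow ones control 7, 8 and 9 and scKO 1 stand apart in earlier results of these data, and the shallow and all-library counts are also given without them. Hoxa10, the targeted gene, was at 1.94 to 4.94 CPM (counts scaled to library totals with TMM factors) in shallow scKO libraries against 15.3 to 66.4 CPM in shallow controls, and at 7.03 to 10.6 CPM in deep scKO libraries against 38.8 and 41.0 CPM in deep controls (log2 fold change -2.54, SE 0.25; edgeR adjusted p = 3.01e-06 in the model that holds the depth class). Summed satellite cell and myoblast markers lay at 8242 to 10115 CPM in shallow scKO libraries and 7277 to 11055 CPM in shallow controls. In deep libraries they lay at 2841 to 3155 CPM in scKO and 2775 to 3430 CPM in control. Myod1 had 3977 to 4010 counts in deep scKO libraries and 3878 and 4027 in deep controls. Myog had 3875 to 3967 counts in deep scKO libraries and 3192 and 3927 in deep controls. These lie near the highest count of any feature there, while Pax7, at 207 to 432 counts in deep libraries, lay far below it. The deep sums may therefore hide differences between the groups. All 10 markers had a count in some library. Chodl had only 1 count in scKO 6, 3 in scKO 7 and 1 in control 6, and was at 0 in every other library of both groups. Mitochondrial transcripts held 2.65% to 3.79% of counts in shallow scKO libraries and 2.82% to 3.91% in shallow controls. In deep libraries they held 0.848% to 0.914% in scKO and 0.882% to 1.06% in control. These values thus differed between the depth classes, but cannot be separated from depth. The highest count of any feature was the same in every deep library, and was 3956 or more in every shallow one. Counts of abundant genes may therefore be held down, above all in deep libraries. The part of this in the marker and mitochondrial values was not tested. Each of the 6 Schwann cell markers had a count in some library. Their sum ran from 16.4 to 87.2 CPM in shallow scKO libraries against 38.4 to 156 CPM in shallow controls. It ran from 35.7 to 53.0 CPM in deep scKO libraries against 19.7 to 28.6 CPM in deep controls. The 6 smooth muscle and pericyte markers were also each counted in some library. Their sum lay at 277 to 309 CPM in deep scKO libraries against 227 to 273 CPM in deep controls. Within it Abcc9 was at 66.9 to 81.6 CPM in deep scKO libraries against 30.1 and 33.5 CPM in deep controls. Rgs5 went the other way, at 115 to 127 CPM against 128 and 137 CPM. Fibro-adipogenic markers summed to 332 to 366 CPM in deep scKO libraries and 360 to 382 CPM in deep controls. In shallow libraries they summed to 504 to 837 CPM in scKO and 568 to 1126 CPM in control. Col3a1 made up most of each sum, at 283 to 321 CPM in deep scKO libraries and 339 and 322 CPM in deep controls. Of the fat markers Plin1, Cfd and Retn were at 0 in every library. The part of these cell types in the results was not tested.

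Transcripts of the kinetochore were lower in the deep scKO libraries in every subcomplex. There, 35 of the 47 genes fell and 0 rose (edgeR adjusted p under 0.05 over 13136 features), while 7.03% of all features were called lower and 7.31% higher. DESeq2 called 30 of the 47 lower, against 4.81% of all features, and at an unadjusted p under 0.05 edgeR found 43 lower, against 14.6% of all features, and 1, Mad1l1, higher. The median log2 fold change of the 47 was -0.64, against -0.0017 for all features tested, and 46 of 47 values were negative, against 50.2% of all features. Together the 47 genes took 0.313% to 0.318% of all counts in the deep scKO libraries and 0.421% and 0.433% in the deep controls. In 42 of the 47 every deep scKO library lay below both deep controls, against 20.9% of all features. All 47 passed the filter on low counts in the deep libraries, so none was left out of these counts. The deep comparison holds 3 scKO and 2 control libraries. When each was left out in turn, 29 to 33 of the 47 were called lower, and 23 of the 35 were called in every one of the 5 fits.

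**Figure D1:**
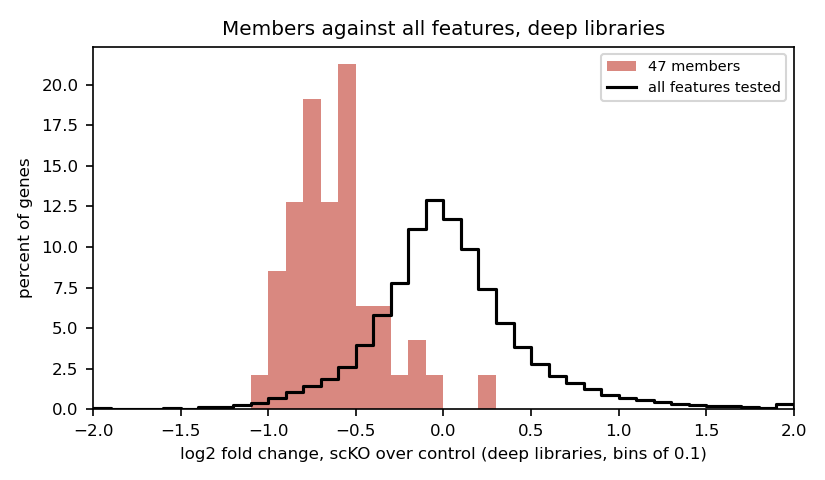
Share of genes (percent, bins of 0.1) by log2 fold change of scKO over control in the deep libraries, for the 47 members (red bars) and all 13136 features tested (black line). Values beyond 2 in size are placed in the end bins. The members lie to the left of the other features, with a median of -0.64 and with 1 gene, Mad1l1, above 0.

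In the shallow libraries only 32 of the 47 passed the filter. Their values were negative in 27, with a median of -0.26 against -0.02 for all features tested, of which 54.2% were negative. No member was called lower by edgeR, DESeq2 or limma-voom, or higher by edgeR, where edgeR called 0.0145% of all features lower and 0.029% higher. At an unadjusted p under 0.05 edgeR found 6, all lower, against 3.13% of all features: Hjurp, Knl1, Knstrn, Cenpe, Cenpf and Trip13. Without control 7, 8 and 9 and scKO 1, still 0 of 31 were called, the median was -0.37, and 9 were lower at an unadjusted p under 0.05, against 4.24% of all features. Without scKO 1, Cenpe alone was called (log2 fold change -1.12, SE 0.21; edgeR adjusted p = 0.0488). The mean level of the tested members in shallow scKO libraries lay at -0.27 ± 0.15 log2 units (SD, n = 6) from the mean of shallow controls, which had an SD of 0.14 (n = 7). In deep scKO libraries the same level lay at -0.59 ± 0.015 (SD, n = 3), with an SD of 0.0029 in deep controls (n = 2). The groups overlapped in the shallow libraries and did not in the deep ones.

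**Figure D2:**
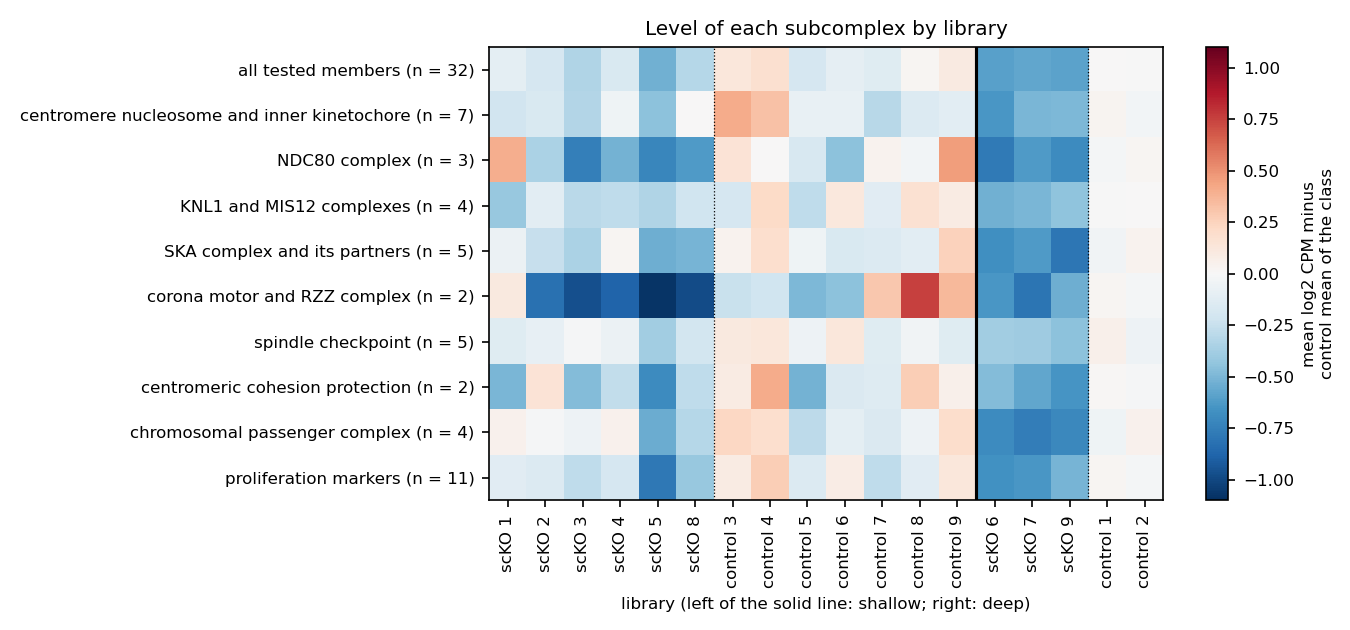
Mean log2 CPM of the tested genes of each subcomplex (rows) in each library (columns), minus the control mean of the same depth class; blue is below and red above that mean. The deep scKO libraries are blue in every row, while shallow scKO libraries vary, with the reddest cells at 0.40 (NDC80 complex, scKO 1), 0.15 (cohesion protection, scKO 2) and 0.11 (corona, scKO 1).

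With the depth class as a covariate, 4 of the 32 tested members fell over all 18 libraries (edgeR adjusted p under 0.05 over 7662 features) and 0 rose, where 0.352% of all features were called lower and 0.326% higher. The 4 were Trip13, Knstrn, Cenpe and Knl1. Values were negative in 30 of the 32, against 51.6% of all features, and at an unadjusted p under 0.05 were 21, all lower, against 5.99% of all features. Without control 7, 8 and 9 and scKO 1 the count was 21 of 39 tested, including those 4, against 4.09% of all features. It was 9 of 36 without scKO 1, against 1.54% of all features. It was 2 without scKO 3, 5, 7 or 8, and 1, Trip13, without scKO 6, control 1 or control 2, where 5 to 10 of all features were called lower. DESeq2 called 11, against 2.94% of all features. With no count filter edgeR called 8 of 47, against 0.807% of all features. Without the depth class in the model the count was 0, against 0.0131% of all features, and the 4 had adjusted p = 0.109 to 0.384. Whether the change differed between depth classes was tested as an interaction. No member was called (edgeR), and neither was any other of the 7662 features. At an unadjusted p under 0.05 were Ska3, Aurkb, Incenp and Ska1, where 2.22% of all features were lower at that threshold. Each of the 4 was lower in the deep libraries (log2 fold change -1.03, -0.76, -0.84 and -0.93) than in the shallow ones (-0.11, 0.02, -0.04 and -0.10). In simulated data this interaction test recovered 10 of 97 genes lowered by a fold of 0.5 in the deep scKO libraries alone, so it had little power.

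**Figure D3:**
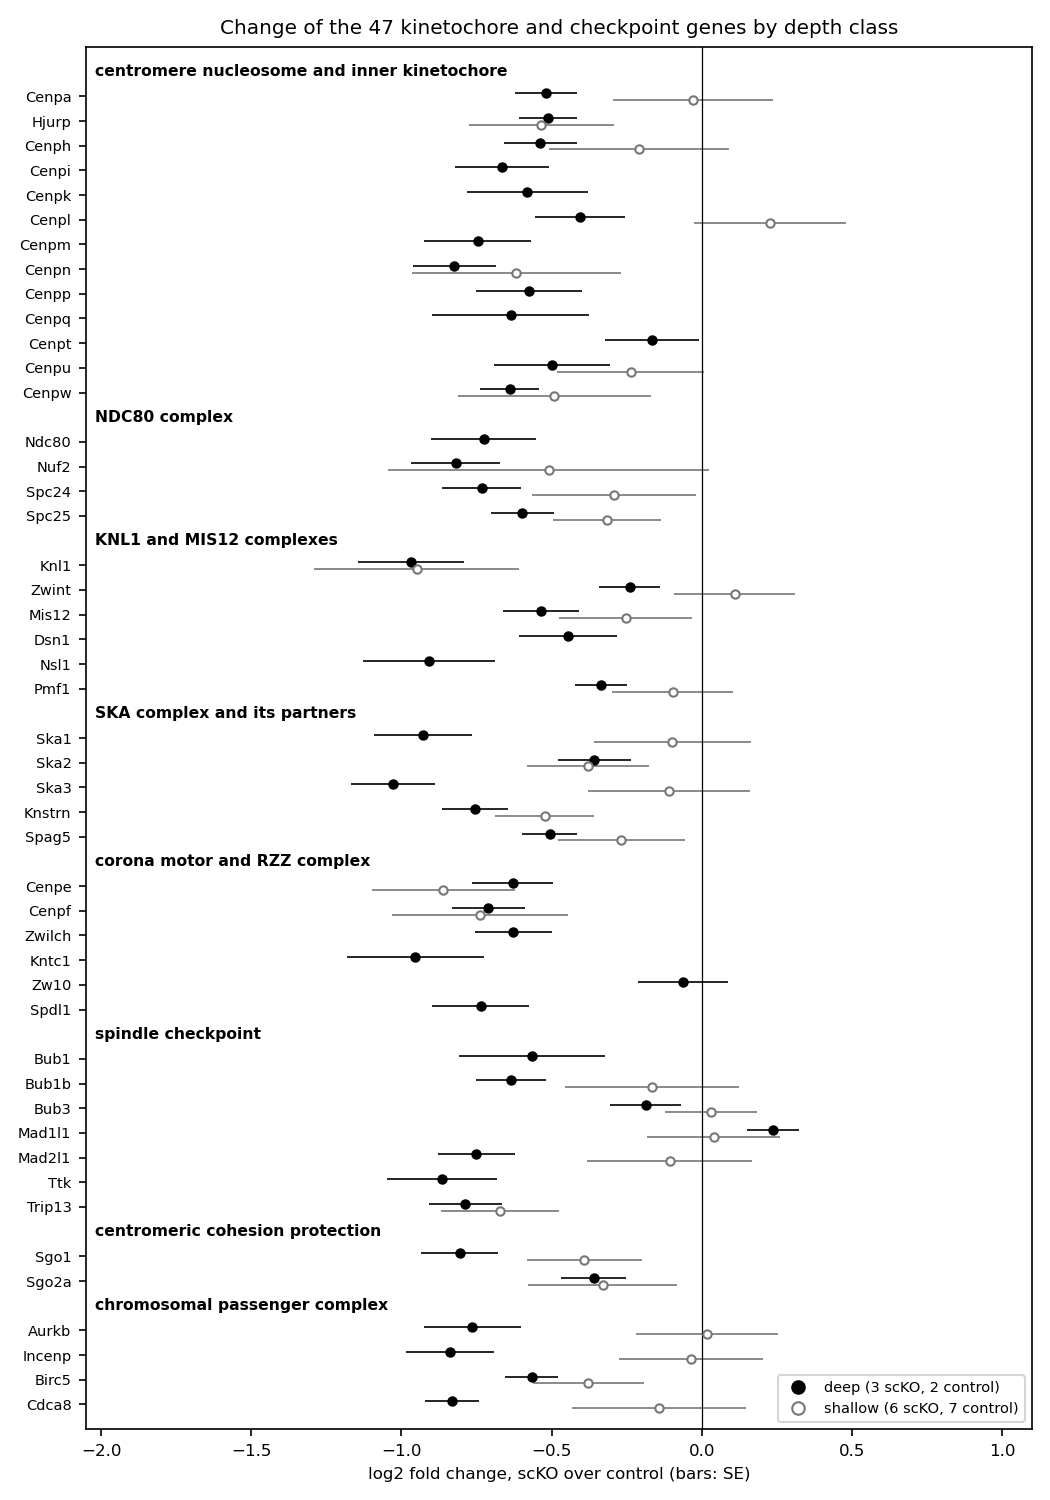
Log2 fold change of scKO over control for each of the 47 genes, by subcomplex, in deep libraries (filled) and, for the 32 genes tested there, in shallow libraries (open); bars are SE. Deep values lie left of 0 for 46 genes, and shallow values for 27 of 32.

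Promoters of the 4 genes that fell over all libraries are shown with those of Cdca8 and Mad1l1, which were chosen after their values were seen, as the gene with the smallest p in the deep libraries and the one with a positive value there. Each runs from 250 bases before the transcription start to 50 from it (RefSeq, build GRCm38.p6). Capitals mark matches, on either strand, to 3 motifs known in promoters of cell cycle genes. The first is TTTGAA, the core of the CHR element, which the MuvB complex binds. The second is CCAAT, read as ATTGG on the other strand, which the factor NF-Y binds. The third is the E2F form TTNNCGC, with C or G at each N, which members of the E2F family of transcription factors bind.
Knl1 (chr2:119046869-119047168, plus strand): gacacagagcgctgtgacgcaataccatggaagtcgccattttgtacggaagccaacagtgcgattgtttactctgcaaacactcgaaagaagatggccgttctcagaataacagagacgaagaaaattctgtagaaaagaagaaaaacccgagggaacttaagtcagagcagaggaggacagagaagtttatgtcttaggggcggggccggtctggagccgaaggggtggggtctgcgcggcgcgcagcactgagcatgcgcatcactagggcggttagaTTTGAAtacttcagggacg
Cenpe (chr3:135212313-135212612, plus strand): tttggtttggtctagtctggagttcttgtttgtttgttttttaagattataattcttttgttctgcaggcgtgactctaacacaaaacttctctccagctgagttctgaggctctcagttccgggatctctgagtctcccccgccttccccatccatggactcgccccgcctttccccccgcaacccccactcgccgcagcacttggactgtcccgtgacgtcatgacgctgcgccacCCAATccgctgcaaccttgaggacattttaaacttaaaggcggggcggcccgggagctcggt
Knstrn (chr2:118813753-118814052, plus strand): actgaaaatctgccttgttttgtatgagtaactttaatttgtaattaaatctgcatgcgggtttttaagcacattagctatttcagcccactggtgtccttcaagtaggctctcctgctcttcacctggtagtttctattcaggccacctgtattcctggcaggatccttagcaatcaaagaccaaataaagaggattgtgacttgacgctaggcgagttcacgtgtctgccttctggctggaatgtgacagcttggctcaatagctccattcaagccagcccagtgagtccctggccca
Trip13 (chr13:73937718-73938017, minus strand): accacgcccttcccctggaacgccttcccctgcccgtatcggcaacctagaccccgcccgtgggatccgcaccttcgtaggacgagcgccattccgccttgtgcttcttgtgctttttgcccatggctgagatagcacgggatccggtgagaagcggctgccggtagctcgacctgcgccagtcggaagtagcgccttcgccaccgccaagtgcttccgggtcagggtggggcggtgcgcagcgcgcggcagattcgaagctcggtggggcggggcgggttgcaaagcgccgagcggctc
Cdca8 (chr4:124936868-124937167, minus strand): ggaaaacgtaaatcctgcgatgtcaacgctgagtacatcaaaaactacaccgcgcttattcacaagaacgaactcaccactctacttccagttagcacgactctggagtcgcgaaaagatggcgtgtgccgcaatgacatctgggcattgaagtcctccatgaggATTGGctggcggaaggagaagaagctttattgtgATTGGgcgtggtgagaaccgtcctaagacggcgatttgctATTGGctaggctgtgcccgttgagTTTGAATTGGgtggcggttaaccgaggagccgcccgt
Mad1l1 (chr5:140321503-140321802, minus strand): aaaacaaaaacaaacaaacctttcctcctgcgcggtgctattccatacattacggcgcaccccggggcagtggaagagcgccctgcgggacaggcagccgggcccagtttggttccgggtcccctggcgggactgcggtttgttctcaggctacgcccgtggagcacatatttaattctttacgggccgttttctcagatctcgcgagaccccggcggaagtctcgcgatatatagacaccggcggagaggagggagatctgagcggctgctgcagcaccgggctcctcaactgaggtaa
In Knl1, TTTGAA begins at base 32 of the transcript side, counting the first transcribed base as 1. Cenpe holds CCAAT 12 bases before the start. Cdca8 holds ATTGG at 85, 51 and 11 bases before the start, and a 4th copy at base 19 that shares its first base with the TTTGAA at base 14. The windows of Trip13, Knstrn and Mad1l1 held none of the letters searched. Of the 41 members with a promoter in the table, 19 (46.3%) held TTTGAA, against 20.2% of all 27025 genes there. CCAAT stood in 28 (68.3%), against 41.1% of all genes, both motifs in 15 (36.6%), against 7.97%, and the E2F form in 10 (24.4%), against 10.9%. Of the 29 with a promoter that fell in the deep libraries and the 12 that were not called, TTTGAA stood in 16 (55.2%) and 3 (25.0%), CCAAT in 20 (69.0%) and 8 (66.7%), and the E2F form in 5 (17.2%) and 5 (41.7%). These shares are descriptions of the letters in the windows, with no test.

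Among the genes of the centromeric nucleosome and inner kinetochore, 8 of 13 fell in the deep libraries, with a median log2 fold change of -0.57. Hjurp, the chaperone that places Cenpa at centromeres, had 69.9, 70.0 and 76.1 CPM in deep scKO libraries and 98.9 and 104 CPM in deep controls. In shallow libraries it ran from 74.5 through a median of 84.9 to 102 CPM in scKO and from 73.8 through 97.7 to 221 CPM in control. The deep groups do not overlap, while the shallow scKO range lies inside the wide shallow control range. Hjurp fell in the deep libraries (log2 fold change -0.51, SE 0.10; edgeR adjusted p = 0.00354) and was not called over all libraries (-0.53, SE 0.18; edgeR adjusted p = 0.19), but was called without control 7, 8 and 9 and scKO 1 (-0.69, SE 0.13; edgeR adjusted p = 0.00293). Cenpa itself fell in the deep libraries, with 250, 230 and 236 CPM in scKO against 363 and 314 CPM in control (log2 fold change -0.52; edgeR adjusted p = 0.00543), and had a shallow value of -0.03 with all shallow libraries and of -0.37 without control 7, 8 and 9 and scKO 1. Without those 4 it was also called over all libraries (log2 fold change -0.42, SE 0.11; edgeR adjusted p = 0.0249). The largest deep decreases here were those of Cenpn (-0.82), which recognises the Cenpa nucleosome, and Cenpm (-0.75). Cenpw, a histone-fold protein, fell with -0.64, while its partner Cenpt was not called (-0.17, SE 0.16; edgeR adjusted p = 0.536), and neither were Cenpk, Cenpl, Cenpq and Cenpu, with values from -0.64 to -0.40. Exons of Cenpu share 26.7% of their bases with Primpol and those of Cenpp 12.3% with Ippk, on the opposite strand, and whether counting used strand was not stated, so their counts are less certain.

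All 4 subunits of the NDC80 complex, which grips the microtubule, fell in the deep libraries, with log2 fold changes of -0.82 (Nuf2), -0.73 (Spc24), -0.73 (Ndc80) and -0.60 (Spc25). Spc25 had 54.1, 60.0 and 64.0 CPM in deep scKO libraries and 86.7 and 90.9 CPM in deep controls. Its shallow levels ran from 57.6 through 60.3 to 68.2 CPM in scKO and from 53.5 through 71.7 to 116 CPM in control. Again the groups separate in the deep libraries and overlap in the shallow ones. The deep change of Spc25 had SE 0.10 (edgeR adjusted p = 0.00241), and over all libraries it was not called (-0.41, SE 0.13; edgeR adjusted p = 0.149), though it was without the 4 libraries that stand apart (-0.52, SE 0.12; edgeR adjusted p = 0.00854). Ndc80 itself had 33 counts over the shallow scKO libraries and 43 over the shallow controls, too few to pass the filter there.

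Knl1, the scaffold on which checkpoint kinases gather, fell over all libraries. It had 12.9, 16.0 and 16.2 CPM in deep scKO libraries and 23.8 and 33.8 CPM in deep controls. The shallow levels ran from 6.65 through 9.18 to 18.6 CPM in scKO and from 11.1 through 18.4 to 38.8 CPM in control, on only 4 to 12 and 8 to 15 counts a library. Every deep scKO value lies below both deep controls, and the shallow groups overlap. The gene (ENSMUSG00000027326; chromosome 2, 119047119 to 119105501, plus strand, GRCm38) changed by -0.93 on the log2 scale (SE 0.20; edgeR adjusted p = 0.0371), and by -0.97 (SE 0.18) in deep libraries and -0.95 (SE 0.34) in shallow ones. Its call was lost without any one of control 1 and 2 and scKO 3, 5, 6, 7, 8 and 9 (edgeR adjusted p = 0.0526 to 0.22). Of the MIS12 complex, which links Knl1 and the NDC80 complex to the centromere, Nsl1 (-0.91), Mis12 (-0.53) and Pmf1 (-0.34) fell in the deep libraries, and Dsn1 (-0.45, SE 0.16; edgeR adjusted p = 0.0856) was not called. Zwint, a binding partner of Knl1, was not called either, with -0.24 (SE 0.10; edgeR adjusted p = 0.135).

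The SKA complex steadies kinetochores on shrinking microtubules, and Knstrn (kinastrin) and Spag5 (astrin) bind the same attachments. In the deep libraries 4 of these 5 genes fell. Knstrn had 35.1, 40.3 and 41.0 CPM in deep scKO libraries and 63.1 and 66.3 CPM in deep controls. Shallow libraries ran from 36.6 through 41.9 to 52.7 CPM in scKO and from 47.2 through 62.3 to 71.7 CPM in control. Only the tails of the shallow groups cross. Knstrn (ENSMUSG00000027331; chromosome 2, 118814003 to 118853957, plus strand, GRCm38) fell over all libraries (log2 fold change -0.60, SE 0.11; edgeR adjusted p = 0.0138), with -0.75 (SE 0.11) in deep libraries and -0.52 (SE 0.16) in shallow ones. The call was lost without control 1, control 2 or scKO 6 (edgeR adjusted p = 0.0543 to 0.0789). Ska3 had the largest deep decrease of the 47, with 15.9, 17.0 and 14.5 CPM in scKO against 30.4 and 33.2 CPM in control (log2 fold change -1.03, SE 0.14; edgeR adjusted p = 0.000595). In the shallow libraries Ska3 ran from 13.6 to 45.0 CPM in scKO and from 23.9 to 59.8 CPM in control, with a log2 fold change of -0.11 (SE 0.27). Ska1 fell with -0.93 and Spag5 with -0.51 in the deep libraries, and Ska2 was not called (-0.36, SE 0.12; edgeR adjusted p = 0.066). Exons of Ska2 share 10.1% of their bases with the antisense gene Gm11491, and the annotation lists a processed pseudogene, Ska2l-ps, so its count is less certain.

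The corona is the outermost layer of an unattached kinetochore. Cenpe, the kinesin that carries chromosomes along microtubules, had 32.7, 31.4 and 42.2 CPM in deep scKO libraries and 54.0 and 54.3 CPM in deep controls. Across shallow libraries it ran from 26.3 through 32.6 to 68.3 CPM in scKO and from 42.1 through 70.2 to 91.1 CPM in control. The 68.3 CPM is the value of scKO 1, and the other 5 shallow scKO libraries lay at or below 33.3 CPM, under every shallow control. Cenpe (ENSMUSG00000045328; chromosome 3, 135212537 to 135273611, plus strand, GRCm38) fell over all libraries (log2 fold change -0.75, SE 0.17; edgeR adjusted p = 0.0434), and with -0.89 without scKO 1 (edgeR adjusted p = 0.00329). Its call was lost in 12 of the 18 fits that left out 1 library (without control 1, 2, 3, 4 or 9 or scKO 2 to 8; edgeR adjusted p = 0.0535 to 0.132). Within classes its values were -0.63 (SE 0.13) in deep libraries and -0.86 (SE 0.24) in shallow ones. Cenpf, a large coiled-coil corona protein, fell in the deep libraries with -0.71. Of the RZZ complex, which brings dynein and Mad1 to kinetochores, Kntc1 (-0.95) and Zwilch (-0.63) fell in the deep libraries and so did the dynein adaptor Spdl1 (-0.74), while Zw10, which also acts in membrane traffic, was not called (-0.06, SE 0.15; edgeR adjusted p = 0.831).

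The spindle checkpoint genes divided. Trip13, the ATPase that turns Mad2 over, had 24.9, 26.4 and 24.2 CPM in deep scKO libraries and 44.0 and 42.1 CPM in deep controls. In shallow libraries it ran from 19.6 through 28.7 to 34.6 CPM in scKO and from 35.1 through 41.8 to 56.9 CPM in control. It was the one tested member whose scKO libraries all lay below all controls within both classes, as was the case for 0.0522% of all features tested. The shallow separation was narrow and rests on the scaling, as scKO 2 (34.6 CPM) and control 7 (35.1 CPM) each had 19 counts. Trip13 (ENSMUSG00000021569; chromosome 13, 73911347 to 73937784, minus strand, GRCm38) fell over all libraries (log2 fold change -0.72, SE 0.13; edgeR adjusted p = 0.00623), and its call held in all 18 fits that left out 1 library (edgeR adjusted p = 0.00372 to 0.0451). Within classes its values were -0.79 (SE 0.12) in deep libraries and -0.67 (SE 0.20) in shallow ones. The checkpoint kinase Ttk (-0.87), Mad2l1 (-0.75), which inhibits the activator of the anaphase-promoting complex, and Bub1b (-0.64), its partner in that inhibition, fell in the deep libraries. Bub1 was not called (-0.56, SE 0.24; edgeR adjusted p = 0.141), on 55 to 87 counts in deep scKO libraries and 63 and 123 in deep controls. Bub3, which recruits Bub1 and Bub1b, was not called either (-0.19, SE 0.12; edgeR adjusted p = 0.319). Mad1l1, which anchors Mad2 at the kinetochore, had 169, 170 and 162 CPM in deep scKO libraries against 146 and 135 CPM in deep controls. It was the only one of the 47 in which every deep scKO library lay above both controls. The same held for 1895 of the 7662 features tested over all libraries. Mad1l1 was not called (0.24, SE 0.09; edgeR adjusted p = 0.0874).

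**Figure D4:**
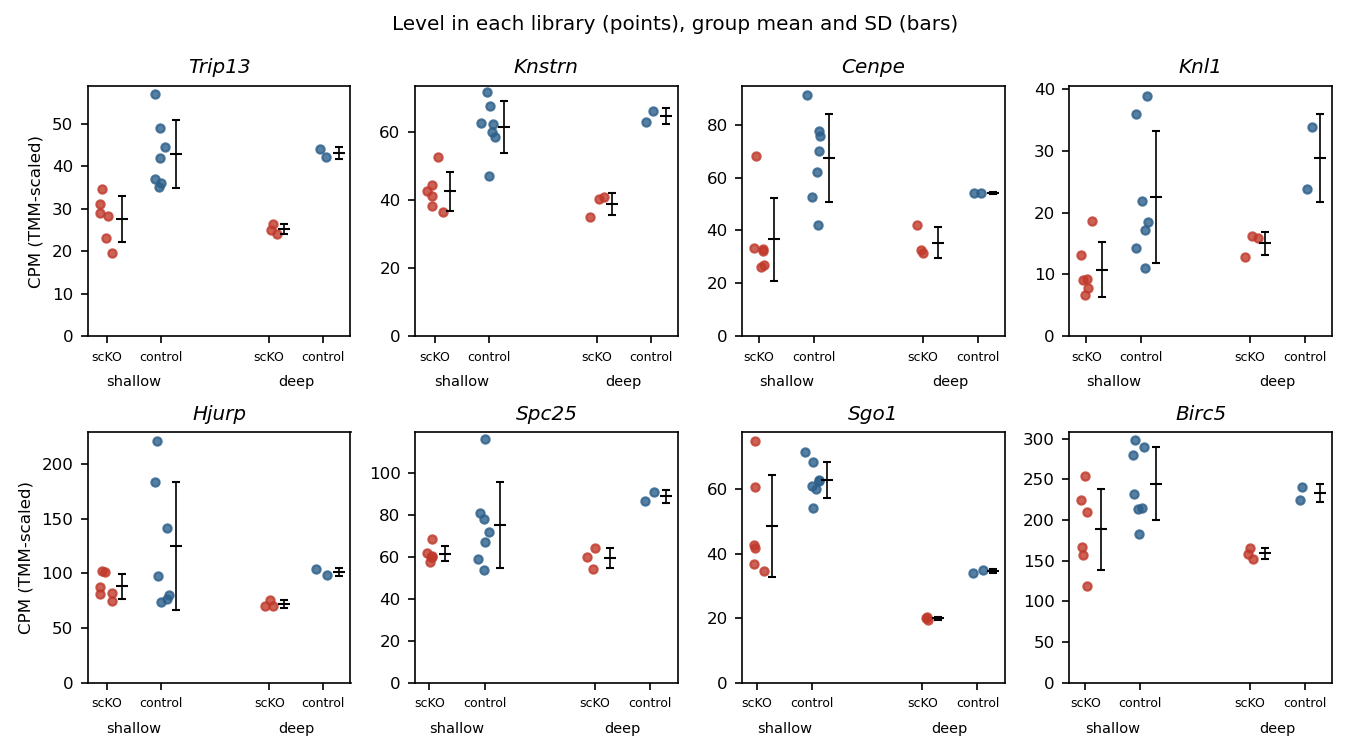
Level (CPM on TMM-scaled sums of the tested features, axes from 0) of the 8 genes described by library, in shallow and deep libraries. scKO is in red and control in blue, points are libraries and bars the mean and SD of a group. The deep groups do not overlap in any panel, and the shallow groups separate only for Trip13.

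Sgo1 and Sgo2a protect centromeric cohesion until anaphase, and both fell in the deep libraries (-0.81 and -0.36). Sgo1 had 19.5, 20.0 and 20.3 CPM in deep scKO libraries and 35.1 and 34.1 CPM in deep controls. The shallow levels ran from 34.6 through 42.2 to 74.7 CPM in scKO and from 54.1 through 62.3 to 71.5 CPM in control. The highest shallow value of Sgo1 was thus a scKO one, although the scKO median was lower. Over all libraries Sgo1 was not called (-0.54, SE 0.14; edgeR adjusted p = 0.0649), and without the 4 libraries that stand apart it was (-0.63, SE 0.14; edgeR adjusted p = 0.00635). Exons of Sgo2a share 35.0% of their bases with Kctd18 on the opposite strand, so its count is less certain.

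The chromosomal passenger complex is the kinase Aurkb with Incenp, Birc5 (survivin) and Cdca8 (borealin). All 4 fell in the deep libraries, with a median log2 fold change of -0.80, the lowest of the 8 groups of genes there. Birc5 had 166, 159 and 153 CPM in deep scKO libraries and 241 and 225 CPM in deep controls. Shallow libraries ran from 118 through 188 to 254 CPM in scKO and from 183 through 232 to 299 CPM in control, and over all libraries it was not called (-0.42, SE 0.13; edgeR adjusted p = 0.159), but was called without the 4 libraries that stand apart (-0.38, SE 0.12; edgeR adjusted p = 0.0426). Cdca8 had 80.6, 81.9 and 78.3 CPM in deep scKO libraries against 134 and 148 CPM in deep controls (log2 fold change -0.83, SE 0.09; edgeR adjusted p = 0.000217). Its shallow levels ran from 50.4 to 150 CPM in scKO and from 45.5 to 160 CPM in control. In the shallow libraries the 4 genes had a median of -0.09, with Aurkb at 0.02 (SE 0.24). The difference between the depth classes was not called for Aurkb (edgeR adjusted p = 0.706 for the interaction).

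Genes beside the 47 gave mixed values. Of 24 other kinetochore and centromere genes, 6 fell in the deep libraries and Bod1 rose (log2 fold change 0.37; edgeR adjusted p = 0.0393), with a median of -0.21; Bod1 was named after its value was seen. Among them Kif18a, a kinesin that damps chromosome movement, and Nde1, a dynein cofactor, had deep log2 fold changes of -0.63 and -0.40, both called lower. Of 21 genes of the anaphase-promoting complex and separase, the targets of the checkpoint, 5 fell and 0 rose, with a median of -0.15. The 3 with the smallest p over all libraries were Cdc20, the activator that the checkpoint inhibits, Espl1 (separase) and Fbxo5, an inhibitor of the complex, with deep log2 fold changes of -0.63, -0.76 and -0.96, all called lower. Cdc20 also fell over all libraries (-0.62, SE 0.14; edgeR adjusted p = 0.0434). Of 12 general proliferation markers, 10 fell in the deep libraries, with a median of -0.67, among them the replicative helicase subunit Mcm5 (-0.93), Ccna2 (-0.77) and Top2a (-0.43), and their mean level in deep scKO libraries lay at -0.60 ± 0.081 log2 units from that of controls (SD, n = 3) and in shallow ones at -0.32 ± 0.25 (SD, n = 6). How much of the kinetochore change goes with the number of dividing cells was not tested.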

How the data were processed

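The members, gene lists and models were chosen with earlier results of these data known. The authors deposited 1 table of raw UMI counts per gene, with 50689 features and 18 libraries; columns were matched to samples by their description. HISAT2, HTSeq and the rat build Rnor_6.0 are named in the submitters' processing notes, although the identifiers are mouse Ensembl genes; versions, strand and kit are not given in the sources used here. The highest count was 4096, and the highest of any member was 2514, in Cenpa; UMI length is not given, and a correction for collisions among 4096 codes, an assumption, was tried. Symbols and positions came from GENCODE M21 (GRCm38).

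Counts were filtered with filterByExpr by group, scaled by TMM and tested with edgeR 4.0.16 (quasi-likelihood, robust) in R 4.3.3, with Benjamini-Hochberg adjustment over all features and a threshold of 0.05, over all libraries with the depth class as a covariate, within each class, and for the interaction. DESeq2 1.42.0 and limma-voom (limma 3.58.1) were alternatives, with other size factors, filters, UMI collision correction, left-out libraries and a replicate block. List levels are mean log2 CPM with a prior count of 2. Levels are compared within genes only. A count of 3, the floor, is 0.501 to 7.14 CPM. No 2 libraries of a group agreed within sampling noise (chi-square over degrees of freedom 1.85 to 10.8 in 40 pairs). In simulated data the fit with the depth class recovered 86 of 94 genes at a fold of 0.5 and 34 of 89 at 0.67 (7476 genes). The deep fit recovered 75 of 95 and 37 of 96 (12928 genes), and the shallow fit 49 of 85 and 10 of 93 (6721 genes). Of the unchanged genes, 4 were called in the fit with the depth class, 18 in the deep fit and 2 in the shallow fit. All members are accounted for; values by library are given for members called with the depth class and for the member with the smallest p of each subcomplex. In each list beside the members, genes called there and at most the 3 with the smallest p are named. Genes beyond this were chosen after their values were seen, and 1 gene that the rule would name is not reported here.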

Additional observations from a re-analysis of the deposited data

Results flagged for a closer look

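In 40 groups of shallow libraries checked for a value far from the others, 4 were found, all in scKO 1. Chance gives about 1 in 20 for separate checks, but these overlap, as Cenpe also counts in the level of the corona genes. Cenpe stood at 68.3 CPM in scKO 1, with the next shallow scKO library at 33.3 CPM. The level of the NDC80 complex lay 0.403 log2 units above the shallow control mean in scKO 1, with the next at -0.348, and that of the corona genes (Cenpe and Cenpf) 0.11 above it, with the next at -0.821. The level of the other kinetochore and centromere genes lay 0.114 above it, with the next at -0.0703. scKO 1 is 1 of the 4 shallow libraries known to stand apart.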

How the results depend on the processing

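Of the results over all libraries, the count of members called lower depended on the processing. It was 4 as reported, 8 of 47 tested with no count filter (against 0.807% of all features), 11 by DESeq2 (against 2.94% of all features), 0 without the depth class and 21 without control 7, 8 and 9 and scKO 1, and ranged from 1 to 9 when 1 library was left out. With size factors by median of ratios and UMI collision correction it was 4, where 27 of 7662 and 28 of 7666 features were called lower. The stricter filter gave 3, against 11 of 7696 features, and limma-voom gave 5, against 51 of 7662 features. With the replicate block the count was 0, with adjusted p = 0.0816 for each of the 4 called genes. The replicate numbers pair no samples by the labels, and deviations of same-numbered libraries correlated at -0.0715 to 0.265. In the deep libraries the count was 35 as reported, 30 by DESeq2, 37 with no count filter, 34 or 35 under the other settings, and 29 to 33 with 1 library left out. In the shallow libraries it was 0, and 0 to 1 with 1 library left out. Hoxa10 was called in each of the 18 fits without 1 library (log2 fold change -2.74 to -2.45). The median of the members was negative under each setting run, at -0.68 in deep libraries with UMI collision correction, and at -0.67 to -0.59 in deep and -0.30 to -0.17 in shallow libraries without 1 library. No direction of the 8 genes described by library reversed. Causes were not tested. Shallow depth limits genes such as Knl1, and the deep comparison rests on 5 libraries.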
